A study of Mus musculus with 10 samples.

Results

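The clones described here are those of a mouse MLL-AF9 leukaemia that grew in NSG recipients, each set against the level of the same clone in the cells of its donor mouse at baseline. The comparison used 6 of the 10 samples of the series: the baseline cells of donor mouse 1 and donor mouse 2, and the bone marrow and spleen of NSG mice carrying leukaemia of each donor. In all groups the cells were c-Kit positive haematopoietic progenitors grown with IL-3, IL-6 and SCF and marked with SPLINTR barcode libraries, and viable cells were sorted before lysis. Ptprca recipients of the same donors (4 samples) served only to show where NSG differed. The labels gave no age of the mice, no time from transplantation to disease and no number of recipients behind a sample, so that the p-values below measure only the spread between these samples, which may be technical. The limma p-values take this spread wholly or partly from all clones together. A barcode was used as a clone when it reached 100 CPM (counts per 1000000 reads of a sample) in at least 1 of the 6 samples. This held for 3287 of 19704 listed barcodes, or 32.0% of the 10261 with reads in these samples: 1750 of the BFP library, 40 of the GFP library and 1497 of the mCHERRY library. The barcode closest above the limit, BFP_Barcode_146790, peaked at 100.02 CPM and the closest below it, BFP_Barcode_36833, at 99.96 CPM.

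SPLINTR barcodes are short DNA sequences that a lentivirus inserts into the genome, so that all descendants of a marked cell carry the same one, and each library also brings a fluorescent protein (BFP, GFP or mCherry). MLL-AF9 joins Kmt2a, a histone methyltransferase gene, to Mllt3, a member of the transcription elongation machinery, and turns haematopoietic progenitors into transplantable acute myeloid leukaemia. NSG mice lack T cells, B cells and natural killer cells but keep neutrophils and macrophages, whereas Ptprca mice differ from the common laboratory strain by a variant of the leukocyte surface protein CD45 and have these lymphocytes. A clone's CPM is its share of barcode reads, so a clone with an equal share at baseline and disease grew as the leukaemia as a whole did, and numbers of cells were not measured.

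Each of the 6 samples was the mean of 2 to 4 sequenced libraries and rested on 5171235 to 10394809 reads, so that 3 reads, the upper limit that a count of 0 allows, corresponded to 0.289 to 0.580 CPM. Such limits hold for counting error alone, since PCR copies without molecular tags do not count molecules. In the baselines, all 1016 and 1129 clones between 100 and 1000 CPM whose reads could be assigned to libraries had reads in both libraries of their sample. The libraries differed by a median of 0.13 (donor 1) and 0.26 (donor 2) on the log2 scale for these clones, and the median distance between baseline and NSG was 3.93 and 3.85. The first is the spread of PCR libraries of 1 lysate only, and the spread between recipients or between engraftments was not measured. Donor 1 marrow was the least even of the NSG samples that could be split, with a median of 0.65 between its libraries, against 0.04 in donor 2 spleen.

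Most clones of the baseline were far lower in NSG, and clones that had expanded over 4-fold held 57.7% (donor 1) and 47.2% (donor 2) of NSG reads. Donor 1 had 1643 clones at 100 CPM or more in at least 1 of its 3 samples and donor 2 had 1658, and only 14 of the 3287 were counted in both donors. The ratio of NSG (mean of marrow and spleen) to baseline was taken after adding 10 CPM to each, and a clone within 4-fold of its baseline was called persisting, one above expanded, one below contracted, and one below with under 3 reads in both organs lost. Over 4-fold higher in NSG were 444 clones of donor 1 (27.0%) and 320 of donor 2 (19.3%). Over 4-fold lower were 930 clones of donor 1 (56.6%) and 974 of donor 2 (58.7%), of which 500 and 465 were lost. Persisting clones numbered 269 and 364. These fates are a fold rule without a test, since each donor had 1 baseline, and clones that entered by their NSG level alone (511 and 401) were chosen for being high there, so that all but 3 and 8 of them lay above their baseline.

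**Figure D1:**
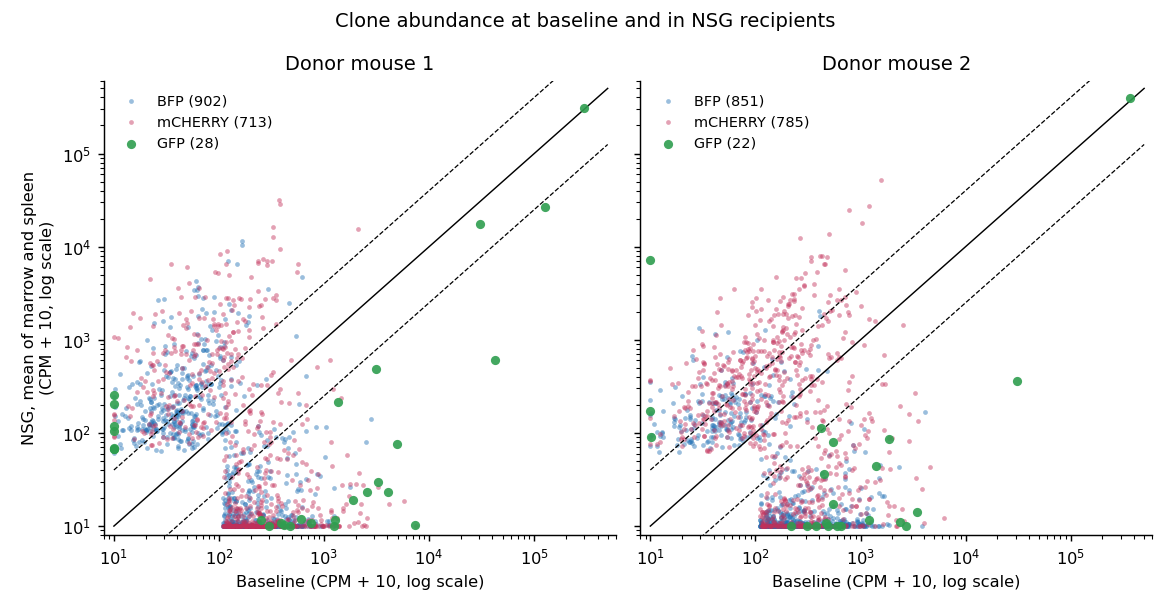
Abundance of each clone at baseline (x axis, CPM + 10, log scale) and in NSG (y axis, mean of marrow and spleen, CPM + 10, log scale), 1 panel per donor, with points coloured by barcode library. The solid line marks equal abundance and the dashed lines 4-fold differences: 444 clones of donor 1 and 320 of donor 2 lie above the upper dashed line, the empty lower left corner is set by the 100 CPM limit, and GFP_Barcode_52804 lies on the line at the upper right.

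Counted on baseline level alone, which the outcome did not choose, most clones were contracted or lost in each donor. Of 1132 donor 1 clones with at least 100 CPM at baseline, 78 (6.89%) expanded, 124 (10.95%) persisted, 430 (38.0%) contracted and 500 (44.2%) were lost. Of 1257 such clones of donor 2, 92 (7.32%) expanded, 191 (15.2%) persisted, 509 (40.5%) contracted and 465 (37.0%) were lost. Across these clones the baseline level ordered the NSG level little (Spearman's rho 0.04 over 1132 clones and 0.12 over 1257, across clones of 1 sample pair each, which are not replicates).

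By reads, 1 barcode held its place and most of the remainder passed to other clones. GFP_Barcode_52804 made up 29.8% of the baseline of donor 1 and 31.4% and 30.9% of its NSG marrow and spleen. In donor 2 it made up 36.7% of the baseline and 36.6% and 42.2% of marrow and spleen. Its shares of Ptprca marrow and spleen were 32.1% and 21.1% in donor 1 and 34.8% and 39.1% in donor 2. Whether a barcode found in both donors marks the descendants of 1 cell or of several was not tested. The expanded clones of donor 1 together held 2.91% of reads at baseline, 56.5% in marrow and 58.9% in spleen. Those of donor 2 held 3.43%, 49.1% and 45.4%. The contracted and lost clones of donor 1 had held 38.2% and 15% of baseline reads, and contracted clones kept 2.67% in marrow and 3.95% in spleen. Those of donor 2 had held 31.4% and 14.9%, and contracted clones kept 1.21% and 0.539%. The classes were cut on this same change, so the shares describe its size.

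**Figure D2:**
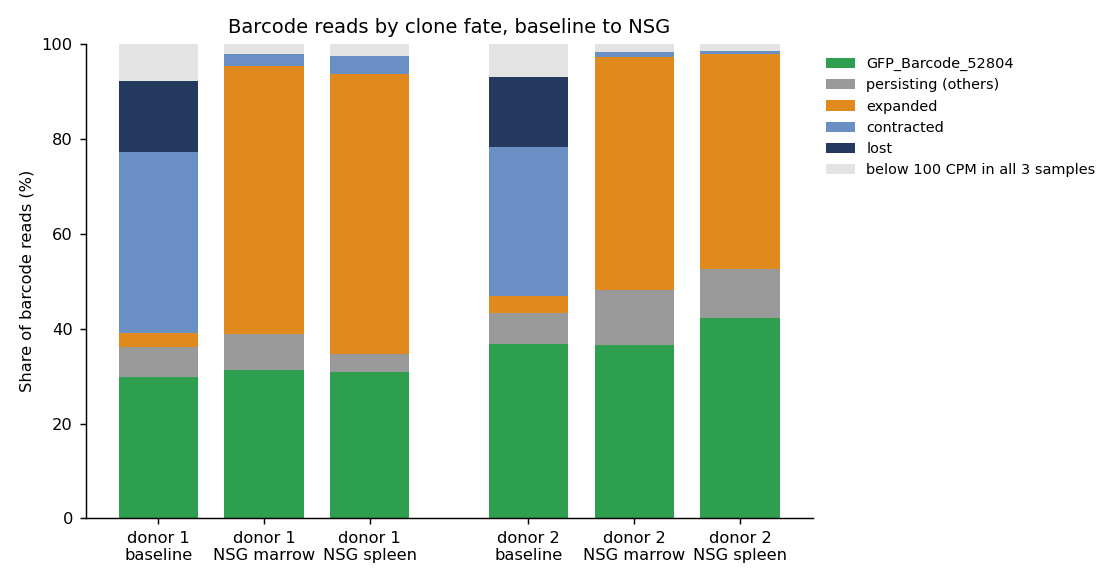
Share of barcode reads (y axis, %) in each of the 6 samples, stacked by the fate of the clones between baseline and NSG, with GFP_Barcode_52804 drawn apart from the other persisting clones and barcodes under 100 CPM in all 3 samples of the donor at the top. The expanded clones go from 2.91% and 3.43% at baseline to between 45.4% and 58.9% in the NSG samples, while GFP_Barcode_52804 stays between 29.8% and 42.2%.

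Many clones expanded, but a small part of them held 50% of the reads of the class. In donor 1, 35 of the 444 expanded clones held 50% of the reads of all expanded clones, 7 averaged 1% or more of NSG reads and 317 were under 0.1%. In donor 2, 20 of 320 held 50%, 6 averaged 1% or more and 227 were under 0.1%. The median expanded clone went from 32.2 to 459 CPM in donor 1 and from 45.4 to 485 CPM in donor 2. Only 78 of the 444 and 92 of the 320 had 100 CPM or more at baseline. The others entered by their NSG level alone, so these medians partly follow from the 100 CPM limit. The median change of expanded clones was 3.25 (donor 1) and 2.97 (donor 2) on the log2(CPM + 10) scale, which understates the change of rare clones.

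The 5 largest increases of donor 1 were all mCHERRY clones. mCHERRY_2_Barcode_284293 stood at 12.3 CPM at baseline, 390 CPM in NSG marrow and 8556 CPM in NSG spleen, a log2 change of 7.65. mCHERRY_2_Barcode_216835 stood at 24.8, 4068 and 9061 CPM (log2 change 7.56). mCHERRY_2_Barcode_1003391 stood at 5.19, 321 and 3542 CPM (log2 change 7.0). These clones were higher in spleen than in marrow. mCHERRY_2_Barcode_554276 went the other way between organs, at 39.5 CPM at baseline, 10886 CPM in marrow and 1205 CPM in spleen (log2 change 6.94). mCHERRY_2_Barcode_805948 was listed at 0 at baseline and at 31.1 CPM in marrow and 2101 CPM in spleen, at least 2061-fold above the level of 3 baseline reads. All 5 clones lay above their baseline in both organs, and all 4 with baseline reads had them in both baseline libraries. In Ptprca recipients of donor 1, mCHERRY_2_Barcode_1003391 was at 0 and 0.275 CPM and mCHERRY_2_Barcode_805948 at 0.137 and 0.490 CPM in marrow and spleen, whereas mCHERRY_2_Barcode_554276 was at 2270 and 477 CPM. In NSG of donor 2, mCHERRY_2_Barcode_805948 was at 75.8 CPM in marrow and 23.3 CPM in spleen, also from a baseline listed at 0. The source of its reads in NSG samples of both donors was not tested.

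In donor 2 the largest increase was a GFP clone that was not seen at baseline. GFP_Barcode_40977 was listed at 0 at baseline and reached 11609 CPM in marrow and 2691 CPM in spleen, a level at least 13726-fold that of 3 baseline reads. mCHERRY_2_Barcode_182414 stood at 35.7 CPM at baseline, 2865 CPM in marrow and 2686 CPM in spleen (log2 change 5.93). mCHERRY_2_Barcode_348373 stood at 52.7, 2155 and 4849 CPM (log2 change 5.81). This clone was listed at 0 in both Ptprca organs of the donor, as was GFP_Barcode_40977. BFP_Barcode_268656 stood at 19.0 CPM at baseline, 2457 CPM in marrow and 219 CPM in spleen. mCHERRY_2_Barcode_289696 stood at 255 CPM, 23242 CPM and 1390 CPM (log2 change 5.54 for both clones). Both NSG samples of donor 2 lay above the baseline for all 5.

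By size in NSG and not by fold, 13 of the 20 largest clones of donor 1 and 18 of donor 2 were mCHERRY clones. Of the 20 largest at baseline 8 and 13 were, and of all clones 1497 of 3287. Among the 10 largest NSG clones of donor 1, 5 were mCHERRY, 3 GFP and 2 BFP clones. The clones named here were chosen by their NSG share, after values were seen. In donor 1, mCHERRY_2_Barcode_663729 ranked second after GFP_Barcode_52804, at 0.0359% of reads at baseline, 1.17% in marrow and 5.11% in spleen, but at 0.0596% and 0.0876% in Ptprca marrow and spleen. BFP_Barcode_112923 stood at 0.0157% at baseline, 1.68% in marrow and 0.635% in spleen, and at 0.00366% and 0.000238% in the Ptprca organs. Both clones ranked far down the baseline, at places 287 and 740. In donor 2, mCHERRY_2_Barcode_311488 led the expanded clones, from 0.155% to 5.98% in marrow and 4.40% in spleen. mCHERRY_2_Barcode_529484 stood at 0.102% at baseline, 1.77% in marrow and 1.81% in spleen, and at 0.502% and 0.185% in the Ptprca organs. The 20 largest NSG clones held 55.7% of NSG reads in donor 1 and 62.6% in donor 2, and only 3 and 1 of them were among the 20 largest of the baseline. Their median baseline level was 295 and 427 CPM, and 16 of 20 had been below 1000 CPM in each donor.

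Few abundant clones kept their share. Apart from GFP_Barcode_52804, the persisting clone with the highest baseline of donor 1 was GFP_Barcode_98919, at 3.07% at baseline, 2.99% in marrow and 0.511% in spleen. mCHERRY_2_Barcode_682544 stood at 1129 CPM at baseline, 770 CPM in marrow and 425 CPM in spleen. mCHERRY_2_Barcode_125177 stood at 839, 731 and 281 CPM. In each of these clones the marrow was nearer to the baseline than the spleen. BFP_Barcode_155848 persisted only as a mean of unlike organs, at 657 CPM at baseline, 788 CPM in marrow and 1.30 CPM in spleen. In donor 2, mCHERRY_2_Barcode_718234 stood at 1376 CPM at baseline, 1827 CPM in marrow and 1324 CPM in spleen. mCHERRY_2_Barcode_975026 stood at 1185, 1559 and 1728 CPM. Both clones stayed within 4-fold of baseline in each organ. mCHERRY_2_Barcode_1077815 was at 2515 CPM at baseline and 2641 CPM in marrow but at 245 CPM in spleen, and mCHERRY_2_Barcode_685307 at 1664, 1140 and 202 CPM. The Ptprca organs of donor 2 differed for these clones, with 5.68 and 34.5 CPM for mCHERRY_2_Barcode_1077815 and 1.96% and 0.326% of reads for mCHERRY_2_Barcode_975026.

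Large baseline clones were among those that dropped out or nearly so. In donor 1, mCHERRY_2_Barcode_552621 went from 7555 CPM at baseline to 0 in both NSG organs, while the Ptprca organs held 218 and 143 CPM. GFP_Barcode_113643 stood at 7288 CPM at baseline, 0 in marrow and 0.665 CPM in spleen. mCHERRY_2_Barcode_399479 stood at 2492 CPM and was listed at 0 in both NSG organs, at least 5367-fold below baseline. mCHERRY_2_Barcode_499209 and mCHERRY_2_Barcode_529839 kept traces, from 5780 CPM to 16.9 and 0.402 CPM and from 4165 CPM to 13.7 and 0.536 CPM. Of these 5 clones, the 3 lowest in NSG were all above 50 CPM in both Ptprca organs, which was seen after their values were known.

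In donor 2, BFP_Barcode_95006 went from 3828 CPM to 0 in both NSG organs, at least 11909-fold below baseline, and was at 0 in both Ptprca organs too. GFP_Barcode_27920 went from 2707 CPM to 0 in both NSG organs, at least 8422-fold below. mCHERRY_2_Barcode_1134094 stood at 6193 CPM at baseline and at 3.06 and 1.53 CPM in NSG marrow and spleen. All 3 were also low in Ptprca recipients, at no more than 15.9 CPM in any organ. mCHERRY_2_Barcode_509627 stood at 3993 CPM at baseline, 0 in marrow and 1.51 CPM in spleen. GFP_Barcode_69276 stood at 3454 CPM at baseline, 8.49 CPM in marrow and 0 in spleen, but at 1043 and 428 CPM in the Ptprca organs.

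**Figure D3:**
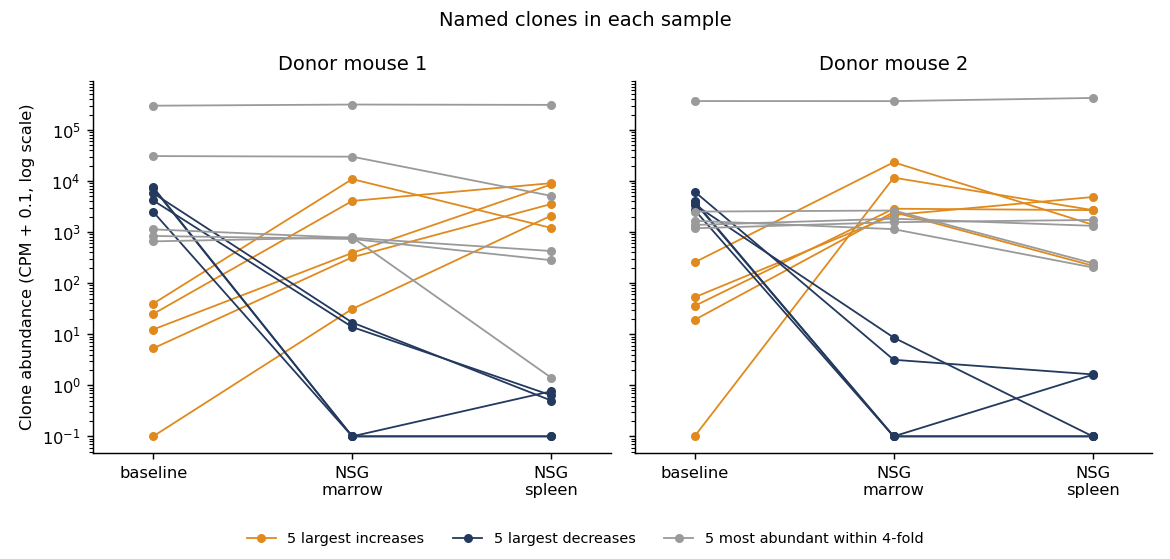
Abundance (y axis, CPM + 0.1, log scale) of the clones with the 5 largest increases, the 5 largest decreases and the 5 highest baselines within 4-fold of each donor, at baseline, in NSG marrow and in NSG spleen, with lines joining the values of a clone. In donor 1 the increasing clones lie between 1205 and 9061 CPM in spleen and the decreasing ones at 16.9 CPM or less in both organs. The sets were chosen on these same values, so their separation is no separate result.

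Only barcodes present in both donors allowed a test with 2 replicates, and 14 of the 3287 clones reached 100 CPM in samples of both. A clone of 1 donor mostly has a change near 0 in the other, so the calls do not measure how many clones changed. limma, fitted to log2(CPM + 10) of all 3287 clones with the donor as a block, called 0 clones higher in NSG (0%) and 3 lower (0.0913%) at a Benjamini-Hochberg adjusted p below 0.05, and 9 clones had an unadjusted p below 0.05, 1 higher and 8 lower. All 3 were GFP clones, as were most of the 14, and each was lower than its baseline in both organs of both donors. GFP_Barcode_52357 stood at 12.6% of reads at baseline of donor 1 and at 1.76% in marrow and 3.52% in spleen, and in donor 2 at 3.10%, 0.0460% and 0.0246%. Its mean log2 change was -4.34 ± 0.93 (SE, limma adjusted p = 0.00475). GFP_Barcode_69276 stood at 4.24%, 0.111% and 0.00727% in donor 1, which with the donor 2 values above gave -7.03 ± 1.46 (SE, limma adjusted p = 0.00475). GFP_Barcode_113643 was at 2377 CPM at baseline of donor 2 and at 0.510 and 1.87 CPM in marrow and spleen, and its mean change was -8.60 ± 1.92 (SE, limma adjusted p = 0.00853). With 1 residual degree of freedom per clone, limma took the spread wholly from the trend over all clones, most of them counted in 1 donor. The SE and p of a clone thus leave out its own difference between donors. For GFP_Barcode_52357 the log2 change was -2.26 in donor 1 and -6.42 in donor 2. The 3 calls were lost without the donor block (limma adjusted p = 0.978 for each), with a pseudocount of 100 CPM (0.844 for each), without the 100 CPM limit (0.171 to 0.860) and without either donor's sample in either group (0.0513 to 0.983). GFP_Barcode_52357 also lost its call with a pseudocount of 1 CPM (0.913) and in marrow or spleen alone (0.607 and 0.874), and GFP_Barcode_69276 and GFP_Barcode_113643 with a limit of 1000 CPM (0.310 and 0.843).

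GFP_Barcode_40977 was the larger of 2 barcodes listed at 0 in both baselines and found in NSG of both donors at 100 CPM or more. In donor 1 it was at 0 in marrow and 488 CPM in spleen. Its mean log2 change was 7.07 ± 2.12 (SE, limma adjusted p = 0.723). It passed the threshold with a pseudocount of 1 CPM (limma adjusted p = 0.00584) and with the organs as separate samples (limma adjusted p = 5.72e-07). The latter fit counts marrow and spleen of 1 donor as independent, so that its p is too small, and over all settings the adjusted p reached up to 0.978. The clone was among those tested by its NSG level alone. It was at 0 in all 4 Ptprca samples.

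Of the other clones of 100 CPM or more in samples of both donors, 5 were lower than baseline in both. GFP_Barcode_7083 stood at 4085 CPM at baseline and 24.8 and 2.10 CPM in NSG marrow and spleen of donor 1, and at 366, 0.157 and 0.112 CPM in donor 2. GFP_Barcode_38818 went from 1233 CPM to 0 and 0.131 CPM in donor 1 and from 464 CPM to 0.962 and 0.599 CPM in donor 2. BFP_Barcode_139027, at 241 and 349 CPM in the baselines, was listed at 0 in all NSG samples. These 3 clones did not pass the limma threshold, at an adjusted p of 0.889 each. BFP_Barcode_213231 was lower in both donors too, from 121 CPM to 0 and 1.18 CPM and from 159 CPM to 49.4 and 2.12 CPM. BFP_Barcode_27084 was the fifth, from 138 CPM to 41.9 and 14.3 CPM in donor 1 and from 102 CPM to 0 in both organs of donor 2.

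GFP_Barcode_98919 and GFP_Barcode_18532 differed between donors, and GFP_Barcode_19949 and mCHERRY_2_Barcode_382334 were higher than baseline in both, without passing the limma threshold. GFP_Barcode_98919, which persisted in donor 1, went from 1383 CPM to 66.9 and 2.38 CPM in donor 2. GFP_Barcode_18532 was listed at 0 at baseline and in spleen of donor 1 and at 113 CPM in its marrow, where the reads were uneven between the libraries (20 and 523), and in donor 2 it went from 413 CPM to 171 and 33.9 CPM. GFP_Barcode_19949 was at 0 and 0.165 CPM in the baselines, at 108 and 281 CPM in NSG marrow and spleen of donor 1 and at 153 and 8.70 CPM in donor 2. Its Ptprca values did not exceed 3.0 CPM. mCHERRY_2_Barcode_382334, at 0 in both baselines, reached 160 CPM in donor 1 spleen and 129 CPM in donor 2 marrow.

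**Figure D4:**
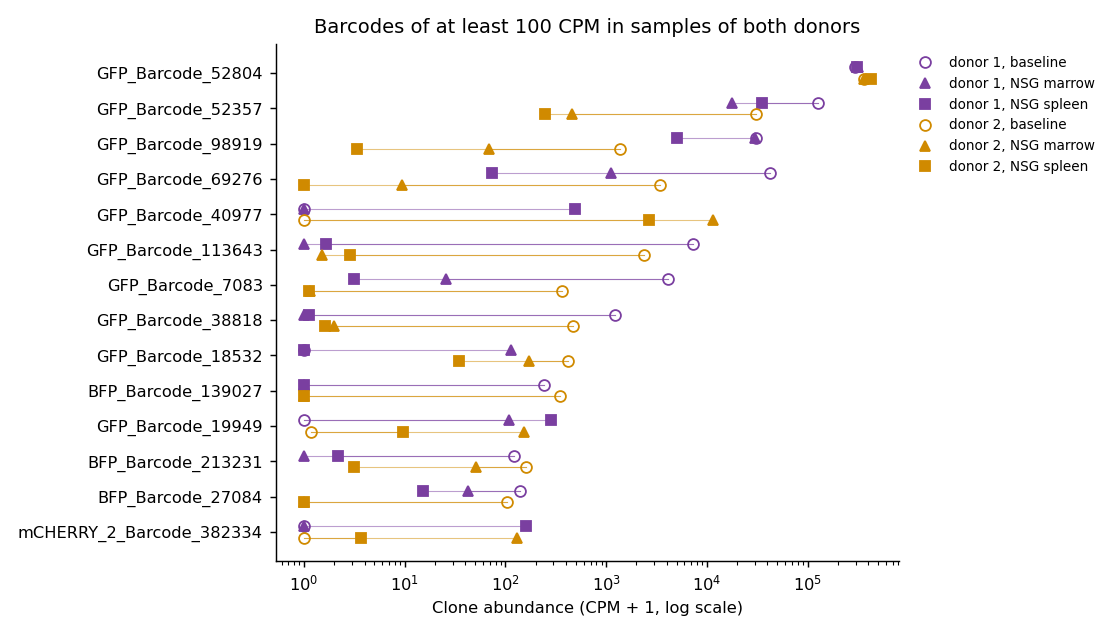
Abundance (x axis, CPM + 1, log scale) of the 14 barcodes with at least 100 CPM in samples of both donors, with open circles for baseline, triangles for NSG marrow and squares for NSG spleen, purple for donor 1 and ochre for donor 2. GFP_Barcode_52804 holds its place in both donors, GFP_Barcode_52357, GFP_Barcode_69276 and GFP_Barcode_113643 lie left of their baseline in both, and GFP_Barcode_40977 lies to the right of a baseline of 0.

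The libraries differed in how many of their clones stayed detectable. Of clones with at least 100 CPM at baseline, 59.4% ± 5.07 (SD, n = 2 donors) still had 3 reads or more in an NSG organ. Of BFP clones 276 of 580 (47.6%) did so in donor 1 and 312 of 686 (45.5%) in donor 2. Of mCHERRY clones 338 of 531 (63.7%) and 468 of 552 (84.8%) did, and of GFP clones 18 of 21 (85.7%) and 12 of 19 (63.2%). In both donors the BFP share lay below both others. No test was made, because clones of 1 sample are not replicates and 2 donors allow no exact p below 0.5.

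Between BFP and mCHERRY clones the gap was present in most ranges of equal baseline level. Between 100 and 200 CPM at baseline, 55.0% of 331 BFP clones and 36.8% of 220 mCHERRY clones of donor 1 were undetected in NSG, and 58.5% of 311 and 16.7% of 198 in donor 2. Above its baseline stood 7.55% of the BFP and 25% of the mCHERRY clones of this range in donor 1, and 5.47% and 41.9% in donor 2. Among the ranges from 10 CPM upward, the order of the undetected shares turned only at 1000 CPM or more in donor 1, where 2 of 12 BFP clones (16.7%) and 12 of 41 mCHERRY clones (29.3%) were undetected. From 1 to 10 CPM the order was the opposite in both donors. There 67.0% of BFP and 75.4% of mCHERRY barcodes were undetected in donor 1, and 69.7% and 74.4% in donor 2. GFP clones were too few for such ranges: between 200 and 500 CPM, 2 of 5 were undetected in donor 1 (BFP 51.9%) and 4 of 7 in donor 2 (BFP 56.3%). The expanded class held 236 BFP, 7 GFP and 201 mCHERRY clones in donor 1 and 80, 3 and 237 in donor 2. Expanded BFP clones made up 16.99% of NSG reads in donor 1 but 2.66% in donor 2, and expanded mCHERRY clones 40.6% and 43.8%.

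Among clones of 100 CPM or more, those with a higher baseline were less often undetected and less often expanded, as counts without a test. From 100 to 200 CPM up to 1000 CPM or more, the undetected share went from 47.7% to 22.4% in donor 1 and from 42.2% to 16.3% in donor 2. Over the same ranges the expanded share went from 9.26% to 1.49% in donor 1 and from 8.84% to 3.06% in donor 2. Both orders held through the ranges of 200 to 500 CPM and 500 to 1000 CPM in between. Below 100 CPM the expanded share had the opposite order, at 5.57%, 11.9% and 12.4% of barcodes of 1 to 10, 10 to 30 and 30 to 100 CPM in donor 1 and 3.67%, 7.73% and 10.2% in donor 2. This order partly follows from the 10 CPM added before the ratio, which raises the fold that rare barcodes need. Without the addition, 19.6%, 26.2% and 23.1% of barcodes in these ranges stood above baseline in donor 1, and 14.6%, 24.5% and 24.6% in donor 2. The undetected share of donor 2 was level from 30 to 200 CPM (41.99% and 42.2%). In the highest range 1 of 67 clones expanded in donor 1 and 3 of 98 in donor 2.

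**Figure D5:**
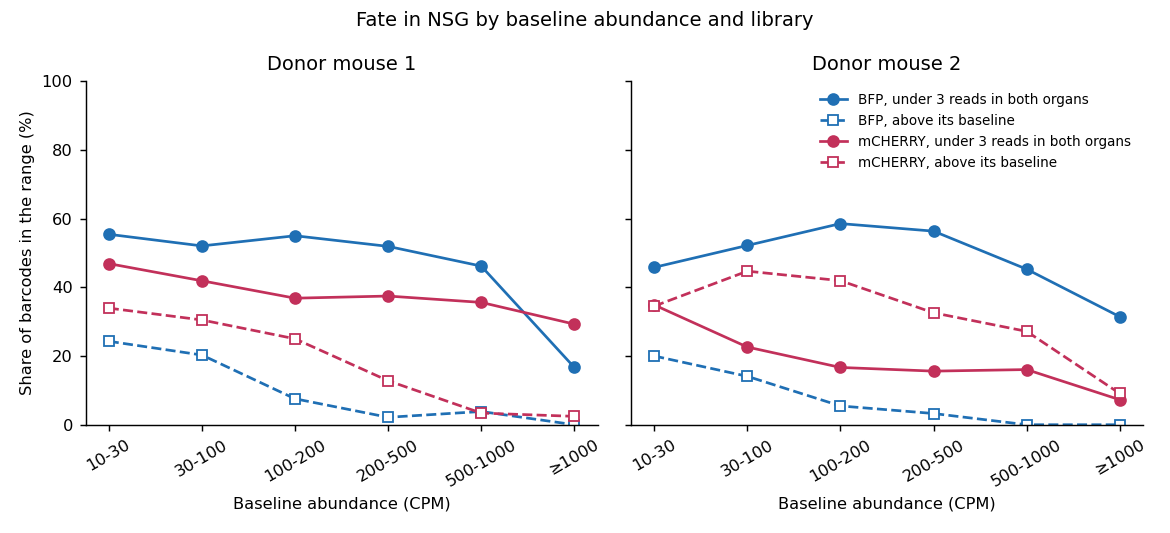
Share of barcodes (y axis, %) that had under 3 reads in both NSG organs (filled circles) or stood above their baseline level (open squares), by range of baseline abundance (x axis, CPM), for BFP (blue) and mCHERRY (red) barcodes, 1 panel per donor, including barcodes of 10 to 100 CPM that are not all among the clones counted elsewhere. Between 100 and 200 CPM the undetected shares are 55.0% and 36.8% in donor 1 and 58.5% and 16.7% in donor 2, and the order of the colours turns in donor 1 at 1000 CPM or more, where there are 12 BFP clones.

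Rare clones, with 3 reads or more but under 100 CPM at baseline, supplied a sizeable part of the leukaemia. They held 28.4% of NSG reads in donor 1 and 13.8% in donor 2, against 70.6% and 85.1% for clones of 100 CPM or more. Barcodes under 3 reads at baseline held 0.969% and 1.11%. Without GFP_Barcode_52804, rare clones held 41.3% and 22.9% of the remaining reads. Rare mCHERRY clones held 15.1% of NSG reads in donor 1 and 9.91% in donor 2, and rare BFP clones 13.3% and 3.87%.

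Clones under 3 reads at baseline were counted only if they reached 100 CPM in an NSG organ, a limit that bears on their number and median level. They numbered 22 in donor 1 and 14 in donor 2, of which 19 and 11 were listed at 0. They held 0.362% and 0.939% of NSG reads, against 0.969% and 1.11% for all barcodes under 3 reads at baseline. GFP clones were 7 of the 22 and 3 of the 14, against 28 of all 1643 clones of donor 1 and 22 of all 1658 of donor 2. All 14 of donor 2 and 10 of the 22 of donor 1 were found in both organs, and their median NSG level was 103 and 150 CPM. GFP_Barcode_40977 was the largest, at a mean of 7150 CPM in donor 2.

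Marrow and spleen agreed on the class of 687 of 1143 clones that were not lost in donor 1 (60.1%) and of 740 of 1193 in donor 2 (62.0%). The lost class needs both organs and was left out here. Of expanded clones, 286 of 444 and 163 of 320 were over 4-fold above baseline in each organ. Between the organs themselves, 240 clones of donor 1 and 238 of donor 2 lay over 4-fold apart, 148 and 145 of them higher in marrow. Over clones of 100 CPM or more in either organ, log2 levels in marrow and spleen correlated at r = 0.58 (693 clones) and 0.56 (699 clones), as a description across clones of the same leukaemia. Only BFP_Barcode_74491 in donor 2 was over 4-fold above baseline in 1 organ and over 4-fold below in the other, at 58.2 CPM at baseline, 6.36 CPM in marrow and 379 CPM in spleen.

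Fewer minor clones shared the leukaemia in NSG, while clones of 1% or more of reads were more numerous. The effective number of clones, computed as e raised to the entropy of the clone shares, was 128 at baseline, 78.4 in marrow and 76.2 in spleen of donor 1. It was 170, 56.9 and 46.3 in donor 2. All 4 NSG samples lay below their baseline, by 1.66-fold and 3.29-fold per donor (mean log2 change -1.23, two-sided exact permutation p = 0.5, the smallest that 2 donors allow). Clones needed for 90% of reads numbered 1099 and 1131 at baseline and 213 to 253 in NSG. Clones of 1% or more numbered 4 at baseline and 14 and 9 in NSG marrow and spleen of donor 1, and 2, 10 and 7 in donor 2. Measures of the largest clones differed between donors. Clones needed for 50% of reads numbered 5 at baseline and 11 and 12 in NSG of donor 1, but 42, 5 and 4 in donor 2. The inverse Simpson number, which weights the largest clones most, was 9.28 at baseline and 9.54 and 9.79 in NSG of donor 1, and 7.33, 7.08 and 5.46 in donor 2. With GFP_Barcode_52804 left out, the mean log2 change of the effective number was -1.67.

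Ptprca recipients of the same cells also lost many baseline clones, and rare clones held fewer of their reads than of NSG reads in both donors, without a test. The NSG and the Ptprca comparison share the baseline samples, so their counts are given side by side only. Of baseline clones of 100 CPM or more, 466 of 1132 (41.2%) in donor 1 and 488 of 1257 (38.8%) in donor 2 were lost in Ptprca mice, against the 500 and 465 lost in NSG. Expanded clones were 63 and 64 in Ptprca mice against 78 and 92 in NSG. Rare clones held 19.3% and 11.2% of Ptprca reads against 28.4% and 13.8% in NSG, and clones under 3 reads at baseline 0.0665% and 0.259% against 0.969% and 1.11%. The effective number of clones was 48.9 and 46.1 in Ptprca marrow and spleen of donor 1 and 35.7 and 30.6 in donor 2, below every NSG value of the same donor.

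With the donor as a block, limma called 0 of 3287 clones higher in NSG than in Ptprca recipients (0%) and 0 lower (0%). The unadjusted limma p was below 0.05 for 10 clones, 5 in each direction. Only 14 of the 3287 clones reached 100 CPM in the baseline or NSG samples of both donors. Clones of 1 donor could hardly be called, so the 0 calls do not show that the hosts were alike. GFP_Barcode_69276 was among the clones with the smallest p, at a mean log2 difference of -4.31 ± 0.86 (SE, NSG minus Ptprca, limma adjusted p = 0.869). BFP clones held unlike shares in the hosts in donor 1, with 19.9% (marrow) and 21.97% (spleen) of NSG reads against 7.26% and 6.39% of Ptprca reads, from 22.6% at baseline. In donor 2 they held 5.30% and 6.18% of NSG reads against 5.59% and 11.4% of Ptprca reads, from 29.1% at baseline, so that the order of the hosts was the opposite of that in donor 1.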

How the data were processed

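Barcode DNA of sorted cells was amplified by PCR and sequenced. The deposited values are CPM, and per the submitters' processing notes Bowtie 1.2.2 and R 3.6 were used. How technical replicates were merged, and which barcode reference and filters were applied, is not given in the sources used here. Columns were matched to samples by the donor, strain and tissue in their names, and 0 columns belonged to other samples. Steps between low CPM values gave each column's libraries and whole read totals (largest distance from a whole number 0.00972), which was tested on simulated data.

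Marrow and spleen CPM were averaged per donor. Clones were fitted with limma 3.58.1 in R 4.3.3 (lmFit, eBayes with trend, log2(CPM + 10), donor as block). The block pairs samples of 1 donor mouse, as numbered in the labels. Differences between the donors at baseline and in NSG correlated at r = 0.50 over 3287 clones. Most clones were counted in 1 donor only, which by itself makes r positive, so that r does not test the pairing. Fates, shares and effective numbers were computed with Python 3.11.15, numpy 2.4.6, pandas 2.3.3 and scipy 1.17.1.

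Named by rule were, per donor, the 5 largest increases, the 5 largest decreases and the 5 highest baselines within 4-fold, then 12 of the clones found in both donors, limma calls and clones opposite between organs. The clones, lists and rules were chosen with earlier results of these data known. Alternatives were other pseudocounts, fold limits, filters and detection limits, single organs, no block and each replicate left out. Chosen after the data were seen were fits with values found in 1 library set to 0, removal of GFP_Barcode_52804 from the effective number, and shares of each donor alone. No barcode sequence was used.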

Additional observations from a re-analysis of the deposited data

How the results depend on the processing

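With 2 donors and 1 baseline each, calls rest on the trend of spread over all clones, and depth limits what is seen to clones above 0.289 to 0.580 CPM. Of the 3 clones that limma called lower, without the block for the pairing by donor 0 remained, as with a pseudocount of 100 CPM or without the filter, while a 1000 CPM filter gave 1 and separate organs 8. Leaving out a replicate (no block) gave 0 to 649, the high counts without a baseline replicate, where clones at 0 in NSG have no spread and the lone sample is assumed to vary like the other group. Higher calls were 1 with a pseudocount of 1 CPM or separate organs, 0 otherwise. NSG against Ptprca stayed at 0 calls with the block, without it and with either pseudocount.

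The 8-fold limit gave 259 and 152 expanded and 531 and 584 persisting clones (donors 1 and 2), and the 2-fold limit 102 and 156 persisting and, in donor 2, 491 expanded. A pseudocount of 100 CPM gave 210 and 145 expanded, 1130 and 1119 persisting, 166 and 233 contracted and 137 and 161 lost. With lost below 10 CPM, 179 and 204 were contracted and 751 and 770 lost. As means of donors, reads from abundant, rare and unseen clones were 77.9%, 21.1% and 1.04%. They became 43.8% and 55.2% (abundant from 1000 CPM) or 66.3%, 32.1% and 1.60% (without the largest baseline clone). Detection became 36.2% for all, 21.0% for BFP, 47.2% for GFP and 54.0% for mCHERRY clones at 10 CPM. With both organs required it was 45.8% for all and 30.4% for BFP clones, and 49.9% for BFP clones of 200 CPM or more. Without donor 1, detection of all clones was 63.0% and the log2 change of the effective number -1.72, and without donor 2 they were 55.8% and -0.73. With the inverse Simpson number the mean log2 change was -0.08, with donor 1 higher in NSG and donor 2 lower. Other values kept their direction, or for counts stayed within 1.5 times.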

Other observations

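In the baseline of donor 2, 65 of 3115 values between 10 and 1000 CPM that could be split came from 1 of its 2 libraries only, 56 of them from the same library, and held 0.131% of its reads (highest 71.5 CPM). Of these 65 barcodes, 55 were at 100 CPM or more and 45 at 1000 CPM or more in a sample of donor 1, and 0 were counted as clones of donor 2. Among them were mCHERRY_2_Barcode_216835 (0 and 80 reads) and mCHERRY_2_Barcode_554276 (0 and 177 reads), 2 of the largest increases of donor 1. In NSG marrow of donor 1, 60 of 1211 such values came from 1 library, 33 and 27 by library, and 3 belonged to clones counted for donor 1. The baseline of donor 1 and NSG spleen of donor 2 had 0. The part of these reads in the counts of clones per donor was measured only by setting them to 0, which left each count of fates as it was. As 0 of the 65 and 3 of the 60 values belonged to counted clones, these counts could hardly change. NSG spleen of donor 1 (3 libraries) and NSG marrow of donor 2 (4 libraries) were not split and so not examined.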
